A study of Mus musculus with 24 samples.

Results

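In the retina of wild-type mice at postnatal day 17 (P17), nearly all regions with the histone mark H3K4me3 also carried H3K27ac, whereas most regions with H3K27ac carried no H3K4me3. The comparison rests on 1 peak list for each mark, 9629 H3K4me3 peaks and 29909 H3K27ac peaks, together 39538 of the 349901 peaks in the 8 lists of the series. Every peak of both lists is a member, and it was classed by whether it shares 1 bp or more with a peak of the other mark. For each of 21883 protein-coding genes of the mouse assembly GRCm38, the bases that each mark covered were summed over the gene and 5 kb on either side.

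The study used CUT&RUN, in which an antibody brings a nuclease to a chromatin protein and the DNA cut loose around it is sequenced, to map the transcription factors SOX8 and SOX9 and both histone marks. All 24 libraries came from wild-type retina, with 600000 nuclei in each reaction, at postnatal day 2 (P2) or P17. The P17 H3K4me3 group and the P17 H3K27ac group have 2 libraries each, and each list was taken to stand for its group. No treatment or transgene is named for any group.

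Trimethylation of lysine 4 on histone H3 (H3K4me3) is laid down by the SET1 and MLL methyltransferase complexes and gathers at the start of active or poised genes, above all at starts rich in CpG. Acetylation of lysine 27 (H3K27ac) is added by the acetyltransferases p300 and CBP, and marks both active starts and active distal enhancers. Most cells of the mouse retina are rod photoreceptors, so a mark mapped in whole retina is weighted towards rods. In such bulk tissue, a mark in fewer cells and a weaker mark in each cell cannot be told apart.

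The lists give positions without heights, depth or replicate values, so the values here are descriptions of 1 list per mark, with no replicate error and no test. Intervals are 95% Wilson intervals, which cover counting error only. H3K4me3 peaks had a median width of 3703 bp (quartiles 2951 and 4709 bp) and covered 39.4 Mb. H3K27ac peaks had a similar median of 3268 bp but a longer upper tail, up to 287979 bp, and covered 173.4 Mb. The H3K27ac list therefore held 3.11 times as many peaks and 4.40 times as many bases. Among cell type markers, all 27 rod genes examined carried both marks, against 48.0% of all genes. Neither mark was at 12 of 14 microglia genes, among them Cx3cr1, P2ry12 and Tmem119, against 40.1% of all genes. Ganglion cell genes, which belong to the retina, also had neither in 12 of 20 cases, so such counts do not test the label of the tissue.

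Gene starts differed in sequence between the classes, and 10 of them are shown here, read from RefSeq on GRCm38.p6 as 250 bases before to 50 bases after the start, 5′ to 3′ on the gene's strand. The table holds 21262 such starts for 17491 of the 21883 genes (79.9%). The first pair carried both marks and belongs to Sag, which encodes rod arrestin (chr1:87803430-87803729, plus strand), and to Crx, the photoreceptor homeodomain factor (chr7:15879906-15880205, minus strand). Each has 3 CpG and holds TAATCC on 1 strand, and they were chosen after the values were seen. The starts of Prph2, Nrl, Pde6b and Nr2e3 also carried both marks and had 7, 2, 4 and 5 CpG, but held no TAATCC. Capitals mark TAATCC or its reverse complement GGATTA, a sequence that CRX and related homeodomain factors bind.
Sag: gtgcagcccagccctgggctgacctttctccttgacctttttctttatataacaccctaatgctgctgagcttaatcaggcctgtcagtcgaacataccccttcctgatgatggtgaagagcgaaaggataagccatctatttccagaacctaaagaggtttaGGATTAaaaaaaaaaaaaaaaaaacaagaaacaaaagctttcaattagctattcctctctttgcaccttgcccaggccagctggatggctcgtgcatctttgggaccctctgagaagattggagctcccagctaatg
Crx: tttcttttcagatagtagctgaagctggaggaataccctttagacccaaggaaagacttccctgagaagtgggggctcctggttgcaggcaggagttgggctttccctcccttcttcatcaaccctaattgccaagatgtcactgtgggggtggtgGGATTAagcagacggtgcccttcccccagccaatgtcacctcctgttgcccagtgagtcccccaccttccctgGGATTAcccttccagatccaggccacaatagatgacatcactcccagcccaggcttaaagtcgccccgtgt

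The next 4 starts belong to genes at the ends of the ratio of both marks, and the CpG are in capitals. The genes 1110051M20Rik (chr2:91444665-91444964, minus strand) and Ntm (chr9:29413403-29413702, minus strand; the first of its 2 starts in the table) had the most H3K27ac for their H3K4me3, and both starts carried both marks. Tfip11 (chr5:112326119-112326418, plus strand) had one of the lowest ratios, and its start carried H3K4me3 alone, with 32 CpG. The start of Wee2 (chr6:40442613-40442912, plus strand), the gene with the lowest ratio, carried neither mark, had 5 CpG and is given for contrast.
1110051M20Rik: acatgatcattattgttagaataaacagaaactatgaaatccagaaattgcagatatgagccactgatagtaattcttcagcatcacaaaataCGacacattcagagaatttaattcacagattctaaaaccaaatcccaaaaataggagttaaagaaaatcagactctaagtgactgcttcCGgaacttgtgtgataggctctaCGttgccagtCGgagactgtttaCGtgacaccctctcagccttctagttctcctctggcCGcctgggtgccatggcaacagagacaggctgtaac
Ntm: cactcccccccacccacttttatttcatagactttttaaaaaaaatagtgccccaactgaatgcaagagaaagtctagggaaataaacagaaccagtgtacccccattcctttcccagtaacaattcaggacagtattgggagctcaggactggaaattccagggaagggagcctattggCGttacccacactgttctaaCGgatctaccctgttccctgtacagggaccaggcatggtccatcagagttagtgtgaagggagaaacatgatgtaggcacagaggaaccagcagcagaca
Tfip11: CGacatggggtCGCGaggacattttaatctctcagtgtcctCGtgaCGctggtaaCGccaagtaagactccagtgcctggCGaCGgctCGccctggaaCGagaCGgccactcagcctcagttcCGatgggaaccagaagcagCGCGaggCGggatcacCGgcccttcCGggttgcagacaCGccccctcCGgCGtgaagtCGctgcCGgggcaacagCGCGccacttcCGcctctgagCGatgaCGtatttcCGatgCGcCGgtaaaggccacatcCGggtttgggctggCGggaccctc
Wee2: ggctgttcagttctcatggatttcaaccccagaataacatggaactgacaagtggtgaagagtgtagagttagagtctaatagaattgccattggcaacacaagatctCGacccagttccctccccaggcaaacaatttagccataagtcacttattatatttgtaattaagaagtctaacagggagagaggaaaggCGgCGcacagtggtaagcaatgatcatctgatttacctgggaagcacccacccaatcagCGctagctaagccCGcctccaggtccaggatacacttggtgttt

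The last 4 starts belong to genes with 1 mark in their whole window, again with CpG in capitals. Pcdh19 (chrX:133688944-133689243, minus strand) and Flrt2 (chr12:95691976-95692275, plus strand) carried H3K4me3 without H3K27ac. Zmynd8 (chr2:165884789-165885088, minus strand; the first of 5 starts in the table) and Shld1 (chr2:132686681-132686980, plus strand; the first of 3) carried H3K27ac without H3K4me3.
Pcdh19: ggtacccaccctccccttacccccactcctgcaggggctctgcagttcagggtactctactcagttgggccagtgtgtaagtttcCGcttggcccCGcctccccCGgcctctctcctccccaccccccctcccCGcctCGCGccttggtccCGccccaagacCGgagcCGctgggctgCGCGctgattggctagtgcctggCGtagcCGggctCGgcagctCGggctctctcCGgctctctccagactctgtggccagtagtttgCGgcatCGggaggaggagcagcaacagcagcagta
Flrt2: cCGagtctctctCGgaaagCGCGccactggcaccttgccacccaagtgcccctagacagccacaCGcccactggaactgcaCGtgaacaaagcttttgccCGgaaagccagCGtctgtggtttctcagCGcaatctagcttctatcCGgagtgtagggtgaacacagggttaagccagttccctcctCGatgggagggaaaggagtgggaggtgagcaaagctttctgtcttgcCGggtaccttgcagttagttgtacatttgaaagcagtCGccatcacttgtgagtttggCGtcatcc
Zmynd8: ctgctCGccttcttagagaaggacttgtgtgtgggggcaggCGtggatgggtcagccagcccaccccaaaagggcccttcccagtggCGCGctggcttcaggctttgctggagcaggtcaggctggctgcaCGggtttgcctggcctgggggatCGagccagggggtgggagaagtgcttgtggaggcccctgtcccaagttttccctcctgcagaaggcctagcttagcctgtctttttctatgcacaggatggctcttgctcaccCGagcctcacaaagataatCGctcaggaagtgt
Shld1: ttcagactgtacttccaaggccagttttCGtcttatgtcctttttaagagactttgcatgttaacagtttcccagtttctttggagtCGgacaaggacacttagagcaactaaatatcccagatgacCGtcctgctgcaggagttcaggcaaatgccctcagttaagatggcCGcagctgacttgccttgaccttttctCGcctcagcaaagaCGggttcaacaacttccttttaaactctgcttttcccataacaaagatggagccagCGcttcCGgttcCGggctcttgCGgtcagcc

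Of the 9629 H3K4me3 peaks, 8690 overlapped an H3K27ac peak (90.2%, interval 89.6 to 90.8%) and 939 did not (9.75%, 9.18 to 10.4%). Of the 29909 H3K27ac peaks, 8538 overlapped H3K4me3 (28.5%, 28.0 to 29.1%) and 21371 did not (71.5%, 70.9 to 72.0%). The overlap was thus lopsided. With the H3K27ac list held to its 9629 widest peaks, which changes both its length and its widths, 39.2% of H3K4me3 peaks overlapped it. At P2, where the H3K27ac list held 287845 peaks, the shares were 98.2% of H3K4me3 peaks and 3.62% of H3K27ac peaks, given side by side since list lengths differ.

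**Figure D1:**
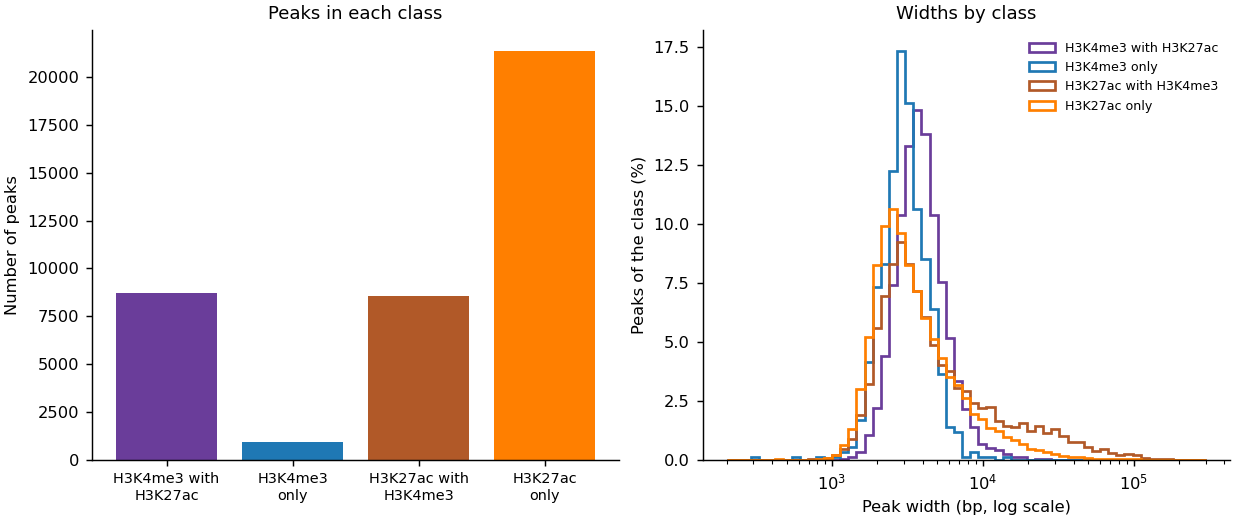
Number of peaks in each class (left, bars from 0) and the distribution of peak widths in each class (right; bp on a log scale against the percentage of the class's peaks), P17 retina, 1 list per mark. H3K27ac peaks without H3K4me3 are the most numerous class, at 21371, and H3K4me3 peaks without H3K27ac the smallest, at 939 with a median width of 2997 bp.

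In the median shared peak each mark covered most of the other. A shared H3K4me3 peak had a median of 90.5% of its bases under H3K27ac (quartiles 72.8 and 100%), and 3048 of the 8690 (35.1%) were covered whole. In turn a shared H3K27ac peak had a median of 83.6% of its bases under H3K4me3 (quartiles 53.5 and 100%), and 2223 of the 8538 were covered whole. Both marks together covered 31.2 Mb, which was 79.1% of all H3K4me3 bases and 18% of all H3K27ac bases. Shared H3K27ac peaks covered 72.2 Mb in all, so by bases most of their cover lay outside H3K4me3. Most overlaps were 1 to 1: 8536 H3K4me3 peaks met a single H3K27ac peak and 154 met 2. In the other direction 8275 H3K27ac peaks met a single H3K4me3 peak, 230 met 2, and 33 met 3 or more, with at most 5.

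Wider peaks carried the other mark more often. The share of H3K4me3 peaks with H3K27ac was 70.8% of 339 peaks under 2 kb, 87.8% of 5337 from 2 to 4 kb, 95% of 3619 from 4 to 8 kb, 98.1% of 313 from 8 to 16 kb and 100% of the 21 from 16 kb up. For H3K27ac the share with H3K4me3 was 20.7% of 3970 peaks under 2 kb and 75.1% (71.4 to 78.4%) of the 578 peaks of 32 kb or more, which alone covered 31.4 Mb. Peaks of both marks together also held SOX9 peaks more often at the same width. Among H3K27ac peaks of 4 to 8 kb, 25.9% of the 1958 with H3K4me3 overlapped a P17 SOX9 peak, against 2.62% of the 4928 without.

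The 939 H3K4me3 peaks without H3K27ac were still gene starts, and they lay far from any H3K27ac. An annotated start lay inside 89.4% of them, against 90.8% of H3K4me3 peaks with H3K27ac. The gap to the nearest H3K27ac peak had a median of 40460 bp, with 82 peaks (8.73%) within 5 kb of one and 417 (44.4%) more than 50 kb away. They overlapped P17 SOX9 in 4.79% (3.60 to 6.35%) of cases, against 21.4% (20.6 to 22.3%) of peaks with both marks, and SOX8 in 4.58% against 18.3%. They lay on chromosome X in 5.54% (4.25 to 7.19%) of cases, against 2.59% (2.28 to 2.94%) of those with both marks. At P2, H3K4me3 had a peak at 80.6% of them and H3K27ac at 88.5%.

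H3K27ac peaks without H3K4me3 were mostly away from gene starts. Their median distance from peak centre to the nearest start was 28368 bp, against 570 bp for H3K27ac peaks with H3K4me3. A start lay inside 6% (5.69 to 6.33%) of them, against 90.3%, and 77.8% were centred more than 10 kb from any start. Most still lay within genes: 73.5% were centred inside a protein-coding gene and 20.6% more than 5 kb outside every one. SOX9 peaks met 2.22% of them and SOX8 peaks 1.34%.

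Seen from the starts, both marks sat on nearly the same number of them, but the marks reached differently to each side. H3K4me3 covered the first base of 45.2% of the 21262 starts and H3K27ac of 46.9%. At 1 kb downstream the shares were 43.9% for H3K4me3 and 40.6% for H3K27ac, and at 1 kb upstream 35.0% and 38.5%. Within 1 kb H3K4me3 thus leaned into the gene, while H3K27ac was more even. At 5 kb downstream H3K4me3 had fallen to 3.73% of starts and H3K27ac was at 16.5%, and at 5 kb upstream they were at 3.85% and 12.2%, so that at this distance it was H3K27ac that was more frequent on the downstream side. Among the 8743 starts with both marks, 97.0% were under H3K4me3 and 86.2% under H3K27ac at 1 kb downstream, and 6.81% and 32.1% at 5 kb downstream, against 5.70% and 20.1% at 5 kb upstream.

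**Figure D2:**
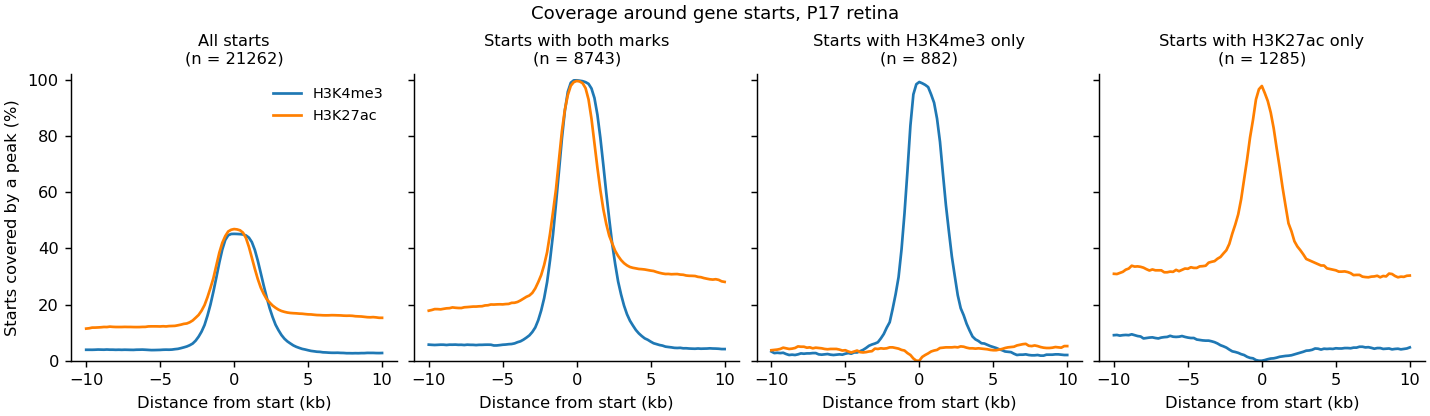
Percentage of gene starts under a peak of H3K4me3 or H3K27ac by distance from the start (kb, negative upstream), for all starts and for starts by the marks they carry, P17 retina. Over all 21262 starts both curves peak near 45.2 and 46.9%, H3K4me3 is skewed downstream near the start, and H3K27ac stays above H3K4me3 beyond 5 kb on both sides.

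Starts with H3K4me3 were rich in CpG whether or not H3K27ac was there, and starts with H3K27ac alone were not. Of the 21262 windows, 8743 touched both marks (41.1%), 882 H3K4me3 only, 1285 H3K27ac only and 10352 neither. The observed CpG count over that expected from the C and G content had a median of 0.816 at starts with both marks, 0.791 with H3K4me3 only, 0.40 with H3K27ac only and 0.252 with neither, against 0.567 over all. The letters TAATCC, searched on both strands, were found in 5.58%, 3.06%, 9.11% and 7.08% of these classes and in 6.42% of all starts. TATAAA, the core of the TATA box, searched on both strands, was in 5.35%, 7.26%, 11.1% and 19.4%, and in 12.6% of all. A match of letters is a description and not a binding site.

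Starts with both marks were poorer in CpG in the rod list and in some others than over all genes. The rod list had 21 starts in the table, for 20 of its 27 genes, and all 21 carried both marks. Their median CpG ratio was 0.320, and 8 (38.1%) held TAATCC, among them the printed Sag start. The printed Crx start, of the photoreceptor factor list, holds it too. Starts with both marks and a CpG ratio below 0.4 numbered 560 in all (6.41% of starts with both marks), and TAATCC was in 15.0% of them, against 4.94% of the other 8183 and 8.35% of the 7092 starts with neither mark and a CpG ratio below 0.4. Of those 560 starts, 20 belonged to the rod or photoreceptor factor lists. Starts with both marks had a median CpG ratio of 0.330 in the voltage-gated potassium channel list, 0.475 in the photoreceptor factor list, 0.501 in the ribbon synapse list and 0.475 in the bipolar list. TAATCC was in 0 of 10, 5 of 17 (29.4%), 5 of 16 (31.2%) and 3 of 9 (33.3%) of those starts. Otx2 is in both the photoreceptor factor and the bipolar list. In the pigment epithelium and melanocyte list TAATCC was in 6 of 12 starts, and 0 of the 12 carried both marks.

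Counted by gene, 10493 protein-coding genes had both marks (48.0%), 641 had H3K4me3 only (2.93%), 1984 had H3K27ac only (9.07%) and 8765 had neither (40.1%). With the 9629 widest H3K27ac peaks alone these counts were 5697, 5437 and 738 for both marks, H3K4me3 only and H3K27ac only. In all, 50.9% of genes had H3K4me3 and 57.0% had H3K27ac. A ratio of H3K27ac to H3K4me3 bases was formed for the 10420 genes with at least 500 bp of each, and its median was 1.62 (log2 0.69, quartiles -0.07 and 1.75). H3K27ac exceeded H3K4me3 in 7535 of them (72.3%). Genes at least 2-fold above that median are called H3K27ac-high here (2728 genes, 26.2%) and those at least 2-fold below it H3K4me3-high (1769 genes, 17%). With the 9629 widest H3K27ac peaks alone they numbered 1400 and 898 of 5627. Relative log2 ratios below are the log2 ratio of a gene less that median.

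The classes were defined by the ratio of these base counts, so a difference in cover between them was built in. In bases it lay mostly in H3K27ac. As a median share of the window, H3K4me3 covered 6.12% in H3K27ac-high genes, 14.5% in genes between the limits and 13.6% in H3K4me3-high genes. The median H3K4me3 cover was 4246 bp in H3K27ac-high genes, 4118 bp in the 5923 genes between the limits and 3819 bp in H3K4me3-high genes, whereas the median H3K27ac cover was 26534.5 bp, 6430 bp and 2354 bp. Just inside the upper limit stood Tma16 (2606 bp of H3K4me3, 8436 bp of H3K27ac) and just outside it Sag (15064 and 48737 bp). Just inside the lower limit stood Bmerb1 (2930 and 2370 bp) and just outside it Slc9a3r2 (2535 and 2052 bp). Across genes the bases of both marks had a Spearman correlation of 0.485, a description over 10420 genes that share the same libraries and often the same peaks.

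**Figure D3:**
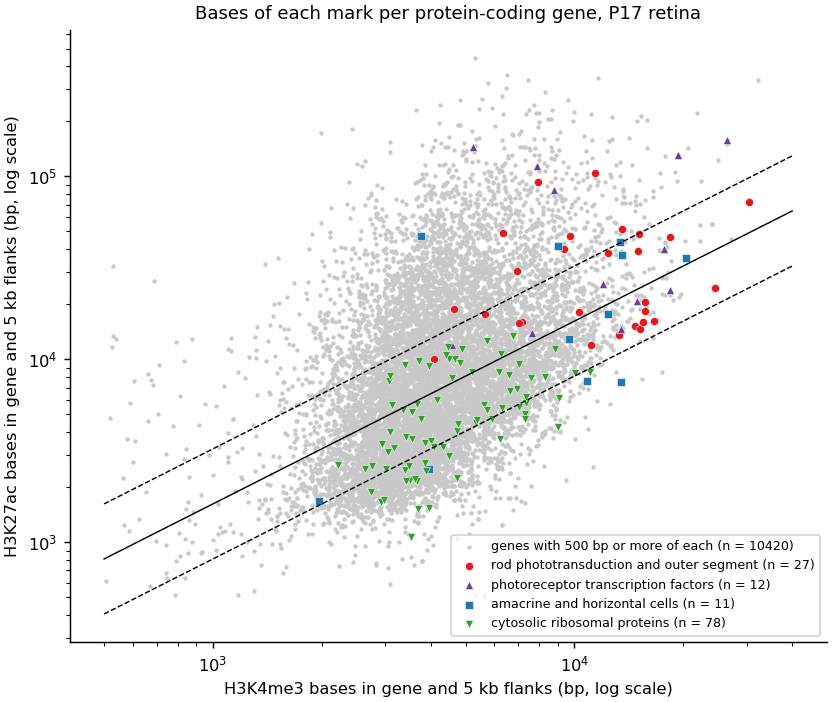
Bases of H3K4me3 (horizontal) and H3K27ac (vertical) in each protein-coding gene and its 5 kb flanks (bp, both axes log), P17 retina, 1 point per gene with at least 500 bp of each mark, with 4 lists in colour; the solid line is the median ratio and the dashed lines the 2-fold limits. H3K4me3 reaches 32232 bp at Gse1 and H3K27ac 443909 bp at Ntm, and the rod genes (red) mostly lie to the upper right of the ribosomal protein genes (green).

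The ratio followed gene length. H3K27ac-high genes had a median length of 64.7 kb, against 17 kb for H3K4me3-high genes, and the Spearman correlation between ratio and length was 0.417 across genes. Of 1229 genes under 5 kb, 3.82% were H3K27ac-high and 22.6% H3K4me3-high. Of 1487 genes of 100 kb or more, 60.5% were H3K27ac-high and 9.68% H3K4me3-high. A longer gene gives a longer window in which distal H3K27ac is counted. Most lists whose ratios are described here are therefore given with the median length of their genes with a ratio. SOX9 peaks lay at 34.7% of H3K27ac-high and 15.7% of H3K4me3-high genes, against 29.9% of genes between the limits and 28.7% of all genes with a ratio. The longer windows of H3K27ac-high genes also take in more sequence, and the SOX9 contrast was not tested.

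The 10 genes with most H3K27ac had 275734 to 443909 bp of it. Ntm, a cell adhesion molecule of the immunoglobulin superfamily, had 443909 bp of H3K27ac in 47 peaks and 5310 bp of H3K4me3 in a single peak. Msi2, an RNA-binding protein of the Musashi family, had 357881 bp against 6497 bp. The zinc finger gene Zfp536 had 346145 bp against 11646 bp, and the adhesion genes Cadm2, Dscaml1 and Cadm1 had 337651, 322232 and 303774 bp against 7437, 5777 and 6477 bp. Gse1 had 338324 bp against 32232 bp in 5 peaks, Arhgap26, a GTPase-activating protein, 290340 bp against 8309 bp in 2 peaks, and the zinc finger gene Zfp385b 275734 bp against 6293 bp. The widest H3K27ac peak of all, 287979 bp, lay at Dscaml1, and H3K4me3 covered 2.01% of it. In Ntm, Msi2, Cadm2, Dscaml1, Cadm1 and Zfp385b H3K4me3 was a single short block within a long acetylated gene. The highest relative ratios were 5.75 for 1110051M20Rik (173001 against 1988 bp), 5.69 for Ntm, 5.53 for Msra, a methionine sulfoxide reductase (181884 against 2424 bp), and 5.28 for Pitpnc1, a phosphatidylinositol transfer protein (229670 against 3653 bp).

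Some long acetylated genes had no H3K4me3 at all. Atp8a2, a phospholipid flippase of photoreceptor and other neurons, had 333828 bp of H3K27ac in 29 peaks, 74.3% of its window, with no base of H3K4me3. Rgs22, a regulator of G protein signalling, had 89500 bp, Zmynd8, a chromatin reader, 83209 bp, Shank2, a postsynaptic scaffold, 78121 bp, and Shld1, a DNA repair protein, 67838 bp. At Shld1 H3K27ac covered 91.5% of the window. Among H3K27ac peaks without H3K4me3 the widest was 127502 bp, across Dtnbp1 and Jarid2, followed by 115217 bp inside Cadm1 and 109655 bp across Ccnq and Lyrm9.

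The genes with most H3K4me3 held between 1 and 5 H3K4me3 peaks. Gse1 had 32232 bp of H3K4me3 in 5 peaks, Gnb1, the beta subunit of rod transducin, 30333 bp in 3, and Nfic, a nuclear factor I gene, 27054 bp in 3. In all 3, every H3K4me3 base was also under H3K27ac. Prph2, which encodes peripherin 2 of the outer segment disc rim, had both marks over its whole window of 24456 bp, with a single peak of each. The overlapping gene models of the protocadherin clusters, Gm37013, Gm38666 and Gm38667, shared the same 23991 bp in 5 peaks, of which 17544 bp lay under H3K27ac.

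The 10 genes with most H3K4me3 and no H3K27ac had 6977 to 11452 bp of it, and how many genes lack H3K27ac rests on its list (641, or 5437 with its widest peaks alone). The protocadherin Pcdh19 had 11452 bp of H3K4me3, the adhesion and guidance gene Flrt2 8892 bp and the protocadherin Pcdh10 8400 bp, each in a single peak. Next came Fdps, farnesyl diphosphate synthase of the sterol pathway, with 8114 bp, and the transcription factors Nr4a2 (7397 bp), Nfib (7288 bp) and Bcl11a (7279 bp). They were followed by Eef1akmt4, a lysine methyltransferase gene (7126 bp), the synaptic adhesion gene Lrfn5 (7026 bp) and Gad1 (6977 bp), which encodes the GABA-synthesising enzyme GAD67. The widest H3K4me3 peaks without H3K27ac lay at Sfi1 (13887 bp), Pcdh19 (11452 bp), the corepressor gene Tle1 (9471 bp), another protocadherin, Pcdh17 (9128 bp), and Flrt2 (8892 bp).

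The lowest ratios came largely from windows that cut a neighbouring peak or shared one. Relative log2 ratios were -4.18 for Wee2, -4.07 for Kctd16 and -3.43 for Tfip11, whose windows held 501, 513 and 779 bp of H3K27ac. Hyls1 and Pus3 had the same values, since they share both peaks, as did Alkbh1, Nrp and Slirp. Among members of the lists below the lowest ratios were -2.86 for Rgs11 and -2.43 for Rpl5.

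Rod genes carried both marks without exception. All 27 rod phototransduction and outer segment genes did, against 48.0% of all genes, with a median of 12349 bp of H3K4me3 and H3K27ac over a median of 87.1% of the window. Gnat1, rod transducin alpha, had 14677 bp of H3K4me3 and 15198 bp of H3K27ac, Pde6g, the inhibitory phosphodiesterase subunit, 15422 and 15894 bp, and Grk1, a phototransduction kinase, 15132 and 14678 bp. In these short genes both marks filled nearly the same bases. Some longer rod genes extended in H3K27ac: Sag had 15064 and 48737 bp, Prom1, an outer segment disc protein, 11382 and 105005 bp, and the retinoid transporter Abca4 7913 and 93046 bp. The split by length had exceptions. Rdh8, 9565 bp long, had 4633 and 18807 bp and was H3K27ac-high. Rp1, 293594 bp long, had 14958 and 39304 bp and lay between the limits. Of the 27, 8 were H3K27ac-high (26.2% of all genes with a ratio) and 0 H3K4me3-high (17%), with a median relative log2 ratio of 0.59 and a median length of 19.2 kb. SOX9 peaks lay at 16 of them, against 15.7% of all genes and 28.6% of genes with both marks.

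Photoreceptor transcription factors had both marks in 12 of 13 cases, the exception being Rxrg, a cone retinoid receptor, with neither. Crx had 18425 bp of H3K4me3 and 24009 bp of H3K27ac, the whole window. Nrl, the factor that sets rod fate, had 13483 and 14717 bp, its target Nr2e3 12011 and 25880 bp, and Otx2 14936 and 20864 bp. The widest acetylation was at Casz1 (26478 and 158103 bp), at Thrb, the thyroid hormone receptor of cones (5243 and 145090 bp), and at Rorb (19372 and 131368 bp). Of the 12, 5 were H3K27ac-high (26.2% of all genes with a ratio) and 0 H3K4me3-high (17%), at a median length of 25.5 kb.

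Cone genes were unlike rod genes in that most lacked H3K4me3. Of 12 listed, Guca1c found no match in the gene table, and of the 11 others 2 had both marks, 5 H3K27ac only and 4 neither. Gnat2, cone transducin alpha, had 4667 bp of H3K4me3 and 17651 bp of H3K27ac, and Gnb3, its beta subunit, 9512 and 13542 bp. The cone arrestin Arr3 (3664 bp), the green opsin Opn1mw (3380 bp), the phosphodiesterase subunit Pde6h (8656 bp), Gngt2 (3970 bp) and the exchanger Slc24a2 (10200 bp) had H3K27ac alone. The Arr3 and Opn1mw starts in the table touched neither mark, so their H3K27ac lay elsewhere in the window. The blue opsin Opn1sw and the channel and phosphodiesterase genes Cnga3, Cngb3 and Pde6c had 0 bp of both.

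**Figure D4:**
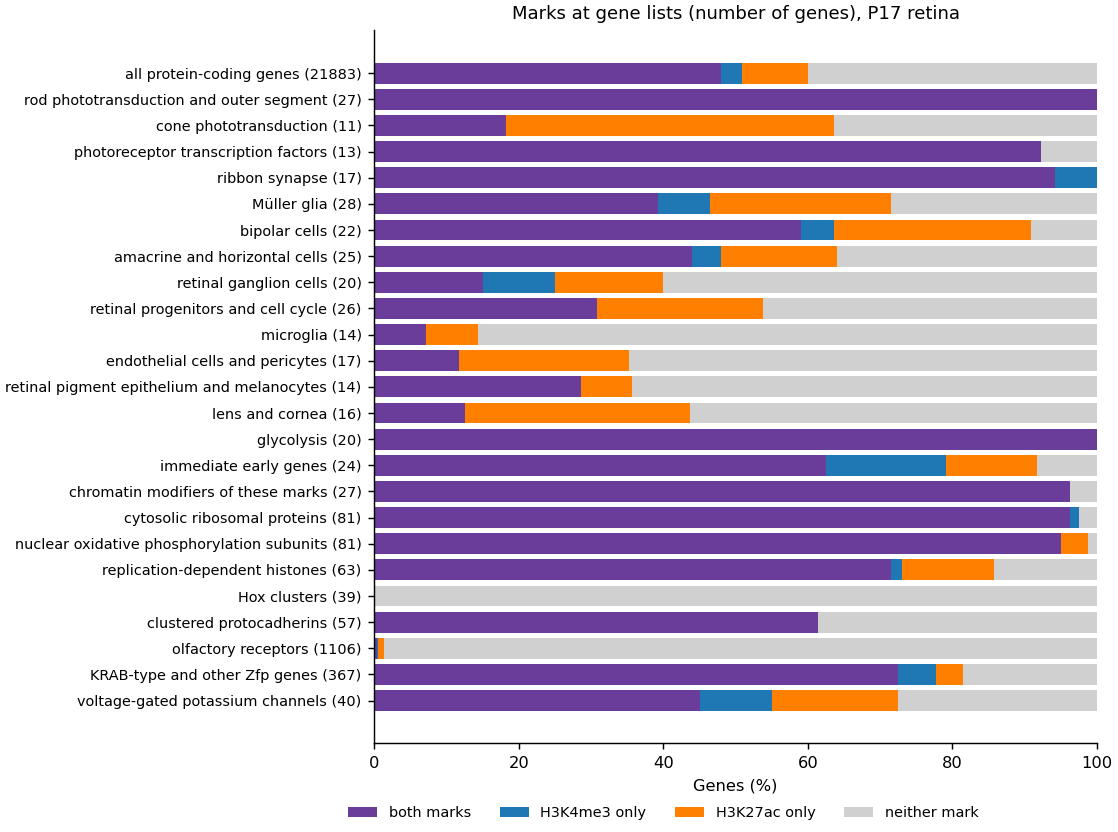
Percentage of genes with both marks, H3K4me3 only, H3K27ac only or neither in the gene and 5 kb flanks, for all protein-coding genes and for each gene list (number of genes in brackets; vomeronasal receptors are not drawn), P17 retina. The rod and glycolysis lists are at 100% for both marks, and Hox clusters at 0%.

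Ribbon synapse genes, which serve release at photoreceptor and bipolar terminals, had both marks in 16 of 17 cases. Rims1, an active zone scaffold, was the exception, with 3958 bp of H3K4me3 and 0 bp of H3K27ac. Of the 16, 9 were H3K27ac-high (26.2% of all genes with a ratio) and 0 H3K4me3-high (17%). Their median relative log2 ratio was 1.05 and their median length 44.5 kb. Ctbp2, which encodes the ribbon protein RIBEYE, had 15877 bp of H3K4me3 and 142808 bp of H3K27ac, Cacna2d4, a calcium channel subunit of photoreceptors, 12885 and 87385 bp, and Elfn1, an adhesion protein of rod synapses, 9189 and 76161 bp.

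Amacrine and horizontal genes lay on both sides of the ratio. Of 25 amacrine and horizontal genes, 11 had both marks, 1 H3K4me3 only, 4 H3K27ac only and 9 neither. Tfap2a, an amacrine factor, had 13423 bp of H3K4me3 and 7475 bp of H3K27ac, of which 4174 bp were shared, and both of its starts in the table carried H3K4me3 alone. Its relative Tfap2b had 10820 and 7575 bp, and Gad2, the other GABA-synthesising enzyme, 3959 and 2521 bp. These 3 of the 11 with a ratio were H3K4me3-high (17% of all such genes), and 3 were H3K27ac-high (26.2%). Both counts are too small to set apart from those shares. Gad1 had no H3K27ac. In contrast Slc6a9, a glycine transporter, had 13353 and 44048 bp, and Prox1, a factor of horizontal and AII amacrine cells, 9015 and 41863 bp. The 11 genes with a ratio had a median length of 29.9 kb, and the comparison of this list with others was not tested.

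Of 22 bipolar genes 13 had both marks (48.0% of all genes), 1 H3K4me3 only (the kainate receptor Grik1, 5078 bp), 6 H3K27ac only and 2 neither. Grm6, the glutamate receptor of ON bipolar cells, had 5746 bp of H3K4me3 and 12298 bp of H3K27ac, and Prkca, a rod bipolar marker, 6714 and 169993 bp. Isl1, a factor of ON bipolar, amacrine and ganglion cells, had 15402 bp of H3K4me3 and 7769 bp of H3K27ac, of which 5781 bp were shared, and its start carried H3K4me3 alone. With Bhlhe22 and Rgs11 it made 3 H3K4me3-high genes of 13 (17% of all genes with a ratio), beside 3 H3K27ac-high (26.2%), counts too small to set apart from those shares. The median length of the 13 was 11.4 kb. The ON bipolar signalling genes Gng13, Nyx and Gpr179 had 11931, 13707 and 11788 bp of H3K27ac and 0 bp of H3K4me3.

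Ganglion cell genes mostly had neither mark, with 12 of 20, against 40.1% of all genes. Among the 12 were the POU factors Pou4f1, Pou4f2 and Pou4f3 and the pan-ganglion marker Rbpms. The neurofilament Nefm (5329 bp) and the microtubule regulator Stmn2 (3510 bp) had H3K4me3 only. A further 3 had both marks (48.0% of all genes), namely Isl1, Nefh and Tubb3. Another 3 had H3K27ac only (9.07% of all genes), namely Opn4, Thy1 and Ebf1.

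Müller glia genes were split between the classes. Of 28, 11 had both, 2 H3K4me3 only, 7 H3K27ac only (against 9.07% of all genes) and 8 neither. Glul, glutamine synthetase, had 7591 bp of H3K4me3 and 7689 bp of H3K27ac, and Dkk3 3784 and 35029 bp. Rlbp1, the retinaldehyde-binding protein, had 5218 bp of H3K27ac and 0 bp of H3K4me3, as had the glutamate transporter Slc1a3 (13862 bp), Clu (12509 bp) and Timp3 (11123 bp). The nuclear factor I gene Nfib and the homeodomain gene Lhx2 had H3K4me3 only, at 7288 and 5852 bp, while Nfix had 4418 and 66309 bp. Hes1, a Notch target, was H3K4me3-high at 4630 and 1693 bp. Sox9 had 0 bp of both marks at P17, and Sox8 had 898 bp of H3K27ac alone.

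Progenitor and cell cycle genes had both marks in 8 of 26 cases, H3K27ac only in 6 and neither in 12, among them Mki67 and Top2a. The eye field factors Six3 (17834 and 22584 bp), Rax (11360 and 14451 bp) and Six6 (11071 and 13554 bp) stood out with broad cover by both. Lists for other cell types that a dissected retina could hold had these numbers of genes with neither mark, against 40.1% of all genes. They were 12 of 14 for microglia and 11 of 17 for endothelial cells and pericytes. For pigment epithelium and melanocytes they were 9 of 14, and for lens and cornea 9 of 16. The endothelial and pericyte genes Cdh5, Cldn5 and Pdgfrb had 0 bp of both, as had Rpe65 of the pigment epithelium. H3K27ac alone was at 5 of the 16 lens and cornea genes and 4 of the 17 endothelial and pericyte genes, against 9.07% of all genes. The part of these cell types in any result was not tested.

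Genes used in every cell mostly had both marks, and ribosomal protein genes had a low ratio of H3K27ac to H3K4me3. H3K27ac still covered a median of 34.9% of the ribosomal protein windows, against 22.2% over genes with at least 500 bp of each mark. Of 81 cytosolic ribosomal protein genes 78 had both; 27 of the 78 were H3K4me3-high (17% of all) and 0 H3K27ac-high (26.2%), with a median relative log2 ratio of -0.77. Rpl5 had 3531 bp of H3K4me3 and 1064 bp of H3K27ac, Rpl34 3949 and 1532 bp, and Rps4x on chromosome X 2059 bp of H3K4me3 alone. Their median length was 3.17 kb, and the median relative ratio of all genes under 5 kb was -0.56. Nuclear oxidative phosphorylation genes had both in 77 of 81 cases, with 15 H3K4me3-high, 3 H3K27ac-high and a median of -0.27 at a median length of 7.50 kb. Photoreceptors rely heavily on glycolysis, and all 20 glycolysis genes had both marks. Of these, 5 were H3K27ac-high (26.2% of all genes with a ratio) and 1 H3K4me3-high (17%). Their median relative log2 ratio was 0.02, at a median length of 17.2 kb. Hk2, the hexokinase of photoreceptors, had 5623 and 29234 bp, and the glucose transporter Slc2a1 9300 and 36786 bp, while Pfkm had 6277 and 2573 bp.

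Genes of chromatin modifiers and readers, not all of which act on H3K4me3 or H3K27ac, had both marks in 26 of 27 cases. The exception was Kdm5d on chromosome Y, with neither. Of the 26, 9 were H3K27ac-high and 0 H3K4me3-high, at a median length of 36.4 kb. Over all genes of 20 to 50 kb with a ratio the shares were 25.9% and 16%. The methyltransferase Kmt2c had 5749 and 70426 bp, the demethylase Kdm1a 3576 and 48654 bp, and the acetyltransferases Crebbp and Ep300 7554 and 57609 bp and 5826 and 21698 bp. Immediate early genes, induced within minutes of a stimulus, had both in 15 of 24 cases and H3K4me3 only in 4, Fosl2 (4580 bp), Egr2 (898 bp), Nr4a2 (7397 bp) and Klf4 (4536 bp), against 2.93% of all genes. Fos had 6156 and 10312 bp and Egr1 6154 and 8533 bp. Of gene families known for other tissues, all 39 Hox genes, which pattern the body axis, and 1091 of 1106 olfactory receptor genes had neither mark.

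The broadest H3K4me3 peaks included those of photoreceptor and eye field genes, and H3K27ac spanned nearly all of their bases. There were 21 H3K4me3 peaks of 16 kb or more. All 21 overlapped H3K27ac, 18 lay wholly inside it, 19 overlapped SOX9 and 11 SOX8. SOX overlap rose with peak width: among H3K4me3 peaks with H3K27ac, SOX9 met 32.8% of those of 4 to 8 kb and 67.4% of those of 8 to 16 kb. SOX8 met 29.2% and 48.5% of them. The widest, 27972 bp at chr17:46902367-46930338, covered Prph2, and others lay at Crx (22398 bp), Gnb1 (20314 bp), Otx2 (18554 bp), Six3 (17834 bp), Mef2d (17075 bp), Msi1 (16620 bp), Pde6g (16271 bp), Tbx2 (16122 bp) and Gnat1 (16094 bp). Others near protein-coding genes lay at Ints5, Stk11, Dlg4, Epb41, Stk35, Zbtb7b and Kcnj14. P2 H3K4me3 covered a median of 66.6% of their bases.

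Of these 21 peaks, 17 lay in the window of a protein-coding gene, and the other 4 all held microRNA genes. Each of the 4 also overlapped long noncoding RNA genes, such as Mir124a-1hg, C130071C03Rik, Mir124-2hg and Mirc35hg. The peak at chr14:64570801-64597936 (27136 bp) held Mir124a-1, that at chr13:83717583-83742740 (25158 bp) Mir9-2, that at chr3:17782602-17801860 (19259 bp) Mir124a-2, and that at chr6:30165069-30183366 (18298 bp) the cluster of Mir182, Mir96 and Mir183. These microRNAs are known for neuronal identity (miR-124, miR-9) and for sensory and photoreceptor cells (the miR-183 cluster). Each H3K4me3 peak lay wholly inside a single H3K27ac peak, of 35137, 33236, 31597 and 108244 bp. The first 3 overlapped both SOX8 and SOX9 and the cluster on chromosome 6 neither. By comparison, 94 of the 1005 microRNA hairpins held by RefSeq lay under both marks (9.35%), 18 under H3K4me3 only, 103 under H3K27ac only and 790 under neither (78.6%). Mature miR-9 and the microRNAs of the chromosome 6 cluster are shown as RefSeq gives them, 5′ to 3′ with the seed, bases 2 to 8, in capitals.
miR-9-5p: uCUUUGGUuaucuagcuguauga
miR-182-5p: uUUGGCAAugguagaacucacaccg
miR-96-5p: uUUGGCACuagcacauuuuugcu
miR-183-5p: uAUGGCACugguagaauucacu

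No seed was shared in full. Position by position, the seeds of miR-96 and miR-182 were equal at 6 of 7 bases, those of miR-96 and miR-183 also at 6, and those of miR-182 and miR-183 at 5, while miR-9 was equal to each of them at 1. The mature sequences of the other copies of miR-9, Mir9-1 on chromosome 3 and Mir9-3 on chromosome 7, lay under no peak of either mark. Of its 3 copies, the one on chromosome 13 alone had its mature sequence under a peak. Marks at the starts of the transcripts that hold these copies were not examined. Among H3K4me3 peaks of 8 kb or more (334 in all), 4 further ones lay outside the windows of protein-coding genes. They were at the long noncoding RNA Malat1 (13294 bp, all under H3K27ac), at the lncRNA gene A930003A15Rik (10108 bp, all under H3K27ac), and over transfer RNA gene clusters on chromosomes 13 (10289 bp, 59.6% under H3K27ac) and 19 (9513 bp, 65.9%).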

How the data were processed

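Peak positions came from the lists deposited by the authors, 1 for each target and age, in 6 columns with no header. The deposited score field was 0 in every peak of the lists, so they carry no height, enrichment or p-value. The submitters' processing notes name Bowtie2, SEACR and the build GRCm38, without versions, settings or roles. How libraries and the IgG controls entered a list is not given in the sources used here, and the depth is unknown. Genes and starts came from RefSeq tables of GRCm38.p6. For genes with no start in the table, both gene ends stood in when distances were measured.

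Peaks were classed by an overlap of 1 bp or more, and bases of each mark were summed per gene with 5 kb flanks. The interval arithmetic was tested on simulated data. Shares have Wilson 95% intervals (scipy 1.17.1, numpy 2.4.6, pandas 2.3.3, Python 3.11.15). No test was run, since each mark has 1 list and no replicate. Genes were named by rank (10 with most of each mark, most of 1 mark without the other, and the highest and lowest ratios), by rank within each gene list and from a fixed list; the 5 widest peaks of each class were named too. Other named list members, the Sag and Crx starts and the microRNA loci were chosen after their values were seen. The members and lists were chosen with earlier results of these data known, so what they show is not independent support. Some named genes are not reported here. The alternatives were stricter overlap, joined or fewer H3K27ac peaks, peaks of at least 1 kb, autosomes, other flanks, another minimum and a pseudocount of 1000 bp.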

Additional observations from a re-analysis of the deposited data

How the results depend on the processing

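Of 39 alternative values over 7 results, 31 stayed within their limits and 8 moved. For a share the limit was the interval of its main value. For a gene count it was a wider range, set as a fold of the main value. With only the 9629 widest H3K27ac peaks (4520 bp or more), 39.2% of H3K4me3 peaks overlapped H3K27ac and 36.2% of H3K27ac peaks overlapped H3K4me3, while 5697 genes had both marks, 5437 H3K4me3 only and 738 H3K27ac only, with 1400 H3K27ac-high and 898 H3K4me3-high. This alternative changes the number and the widths of the peaks together. With H3K27ac peaks under 3 kb apart joined, 35.4% of the 22708 joined peaks overlapped H3K4me3. A pseudocount of 1000 bp gave 3529 H3K27ac-high and 2454 H3K4me3-high genes of 13044, against 2728 and 1769 of 10420. Both counted as within the limits. No paired analysis was possible because each list names no replicate, and for the same reason no replicate could be left out. Peak height, depth and the calling threshold are unknown, so a region in no peak may still carry a mark.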

Other observations

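Replication-dependent histone genes, which sit in clusters and are transcribed in dividing cells, had both marks in 45 of 63 cases, H3K4me3 only in 1, H3K27ac only in 8 and neither in 9. Their distinct peaks numbered 17 for H3K4me3 and 31 for H3K27ac, since neighbouring genes share peaks. TATAAA was in 57.6% of their 59 starts, against 12.6% of all starts, and SOX9 had a peak at 0 of the 63. The clustered protocadherins, neuronal cell surface receptors encoded as arrays of alternative first exons, had both marks in 35 of 57 genes and neither in 22. Those 22 were all of the Pcdhb array, and the 57 genes held 4 distinct H3K4me3 and 11 distinct H3K27ac peaks. Pcdha1 had 9507 bp of H3K4me3 and 10400 bp of H3K27ac, and Pcdhga1 10773 and 39905 bp.

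Zinc finger genes with a Zfp symbol had both marks in 266 of 367 cases, H3K4me3 only in 19, H3K27ac only in 14 and neither in 68. Among the 266, 57 were H3K4me3-high (17% of all genes with a ratio) and 29 H3K27ac-high (26.2%). Their median relative log2 ratio was -0.43, at a median length of 17.2 kb. Voltage-gated potassium channel genes had both in 18 of 40 cases (48.0% of all genes) and H3K4me3 only in 4 (2.93% of all genes), Kcna1 (5413 bp), Kcna4 (3670 bp), Kcnc4 (4146 bp) and Kcnh8 (3073 bp). Kcnv2, a channel subunit of photoreceptors, had 10567 bp of H3K4me3 and 22757 bp of H3K27ac. Of 353 vomeronasal receptor genes 348 had neither mark.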
